A study of Rattus norvegicus with 17 samples.

Results

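The genes described here encode the enzymes, carriers and regulatory subunits of glycolysis and of glycogen metabolism. A fixed list of 42 gene names was looked up in the deposited rat count table, and 41 of them were found, each on 1 of the table's 32495 named entries. All 41 passed the filter on low counts and were tested among 11856 genes; Gapdh was not analysed here. RNA was taken from gastrocnemius, a mixed calf muscle, of rats that bore a tumor and received chemotherapy (labelled Tumor_chemo_controldiet, called chemotherapy samples below), of rats that bore a tumor and received none (Tumor_nochemo_controldiet, tumor samples), and of healthy rats (healthy_controldiet, healthy samples). All 3 groups ate the control diet. The labels do not name the tumor, the drug, the strain, the sex or the age, and they do not say whether each library came from its own animal, so the p-values below measure the spread between libraries.

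Glycolysis splits glucose phosphate into pyruvate, which lactate dehydrogenase can reduce to lactate, and skeletal muscle draws the glucose phosphate either from blood glucose or from its own glycogen. Glycogen synthase lengthens the glycogen chains, and glycogen phosphorylase, switched on by phosphorylase kinase, shortens them. Fast-twitch fibers, which make up most of the rat gastrocnemius, are rich in these enzymes, and Pfkm, Eno3, Pgam2, Ldha and Pygm are their main muscle forms.

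Libraries 11 and 12, both labelled as chemotherapy, differed far less than any other pair (chi-square per degree of freedom 2.04, against 5.47 for the next closest pair) and were summed into 1 sample, called sample 11, which left 6 chemotherapy, 5 tumor and 5 healthy samples. Total counts per sample ran from 3020821 to 19965891 in chemotherapy, from 5422118 to 10857477 in tumor and from 3894210 to 15719080 in healthy samples. The alignment names in the table's first header line carry a suffix whose meaning is not given. It is MB for healthy samples 1 to 4 and for chemotherapy sample 11, and VM for all others. The suffix therefore nearly coincides with healthy against tumor-bearing, and suffix and group cannot be told apart, since only 1 healthy sample carries VM and only 1 chemotherapy sample and no tumor sample carries MB. Levels are CPM, counts scaled to a common library size, with library sizes adjusted by the trimmed mean of M-values. Levels of different genes are not compared, since the table gives no gene lengths. In this bulk tissue, fewer cells of a type and less RNA per cell cannot be told apart.

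The 41 genes together held 6.08 to 7.83% of all counts in chemotherapy samples (median 6.70%), 5.52 to 7.23% in tumor samples (median 6.33%) and 6.72 to 9.38% in healthy samples (median 8.59%). The high ones were healthy samples 1, 3 and 4, at 8.96, 9.38 and 8.59%, and lay above all tumor-bearing samples. Healthy samples 2 and 5, at 6.97 and 6.72%, lay inside the range of the chemotherapy samples. The share is a sum in which the genes with the most counts weigh most. Aldoa alone averaged 17991 CPM in chemotherapy, 17971 CPM in tumor and 31272.5 CPM in healthy samples. Pygm averaged 10124.5, 10659.5 and 14598 CPM in the same order. The share therefore does not describe the 41 genes evenly. The markers of fast fibers summed to 153378 to 183972 CPM in chemotherapy, 157801 to 191728 CPM in tumor and 147660 to 215412 CPM in healthy samples, and those of neutrophils stayed at or below 6.65 CPM in every sample. Myh4 alone averaged 86894 CPM in chemotherapy, 96972 CPM in tumor and 87145 CPM in healthy samples, so the fast-fiber sum largely follows Myh4.

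**Figure D1:**
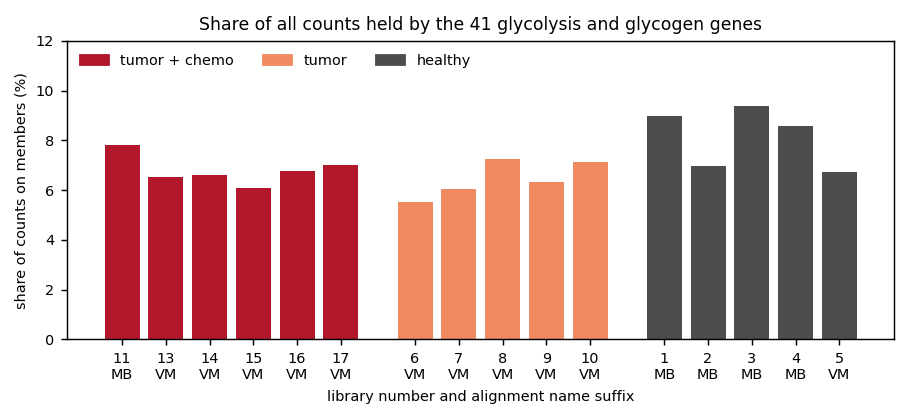
Share of all counts, in percent, held by the 41 glycolysis and glycogen genes in each of the 16 samples. Bars are single samples, labelled with library number and alignment-name suffix. Healthy samples 1, 3 and 4 stand at 8.59 to 9.38%, while all tumor-bearing samples stand at or below 7.83%.

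Against healthy muscle, chemotherapy muscle had lower RNA for the lactate exporter Slc16a3, the hexokinase Hk1, the isomerase Gpi, the aldolase Aldoa, glycogen synthase Gys1 and the lysosomal glucosidase Gaa, and higher RNA for muscle fructose bisphosphatase Fbp2 and the glycogen-targeting phosphatase subunit Ppp1r3a. These 8 of 41 genes (19.5%) passed an adjusted p of 0.05 in edgeR's quasi-likelihood test with Benjamini-Hochberg adjustment over all genes, where 13.7% of all genes tested did. Lower calls made up 6 of the 41 genes (14.6%), against 6.41% of all genes, and higher calls 2 of 41 (4.88%), against 7.3% of all genes. The median log2 fold change of the 41 genes was -0.18, against -0.02 over all genes, and 27 of 41 were negative (65.9%), against 51.2% of all genes. With library sizes taken as total counts, the median over all genes shifted to 0.12 and that of the 41 to -0.04, a difference of -0.16; the calls over all genes then split into 1669 higher and 348 lower, against 865 and 760, and those among the 41 into 3 higher and 4 lower, with Gpi and Gaa no longer called and Pfkfb2 called higher. DESeq2 called 12 of the 41 (2 higher, 10 lower) where it called 2577 of the same 11856 genes, and limma-voom called 11 (2 higher, 9 lower) where it called 2459. The count over all genes was 1625 with edgeR, so it rose with both tools as well. Single values ran from -0.98 for Hk1 to 1.07 for Ppp1r3a. At an unadjusted p under 0.05 stood 18 of the 41, against 36.4% of all genes. Groups did not overlap for 5 of the 41 genes (12.2%), against 4% of all genes.

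No gene of the 41 was called between tumor and healthy muscle, where edgeR called 0 of all genes (0% of 11856) while 2134 genes (18%) had an unadjusted p under 0.05. There 14 of the 41 genes had an unadjusted p under 0.05, the median log2 fold change was -0.16 against 0.01 over all genes, and 28 of 41 were negative (68.3%), against 49% of all genes. Between chemotherapy and tumor muscle, edgeR again called 0 genes (0%), with 685 genes (5.78%) and 5 of the 41 at an unadjusted p under 0.05, and a median log2 fold change of -0.03 for the 41 genes. There 23 of the 41 were negative, against 49.4% of all genes, and 0 of the 41 had groups that did not overlap, against 0.481% of all genes. With DESeq2 in place of edgeR, 29 genes were called between tumor and healthy muscle, among them Slc16a3, and 8 between chemotherapy and tumor muscle, none of them among the 41. With limma-voom the count was 0 in both. Without healthy sample 2, 504 genes were called between tumor and healthy muscle, and 3 of the 41 with them, Slc16a3, Fbp2 and Aldoa; without tumor sample 9, 3 genes were called between chemotherapy and tumor muscle and none of the 41. The comparisons with healthy muscle share the 5 healthy samples, so their values are given side by side and are not independent of each other.

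The 8 calls were sensitive to single samples. Leaving out healthy sample 1, 3 or 4, or chemotherapy sample 13, 14 or 15, ended all 8 calls, and 0 of all genes were then called. Leaving out chemotherapy sample 16 left 5 calls among the 41 genes and 529 among all genes, and leaving out healthy sample 2 gave 16 among the 41 and 3799 among all genes. Over all samples the counts were 8 and 1625, so the calls over all genes moved in the same direction as those among the 41. Over all single left-out samples the log2 fold changes kept their sign, from -1.14 to -0.91 for Hk1, from 0.67 to 0.85 for Fbp2 and from -0.65 to -0.52 for Gys1. Without healthy samples 1, 3 and 4 together, or with the suffix as a term in the model, 0 of the 8 were called (adjusted p at least 0.899 and at least 0.588 in edgeR), and 0 of all genes; the fold changes are given below for each gene. Leaving out those 3 kept only healthy samples 2 and 5. Where the 3 were the highest or lowest healthy samples of a gene, a smaller difference follows from that choice. Values per gene without them therefore describe the split among healthy samples and are no separate test. The median of the 41 genes minus that of all genes was -0.17 over all samples. It was -0.07 without those 3 samples and -0.12 with the suffix as a term. For tumor against healthy muscle the same difference was -0.17 over all samples, -0.10 without those 3 samples and -0.07 with the suffix as a term.

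**Figure D2:**
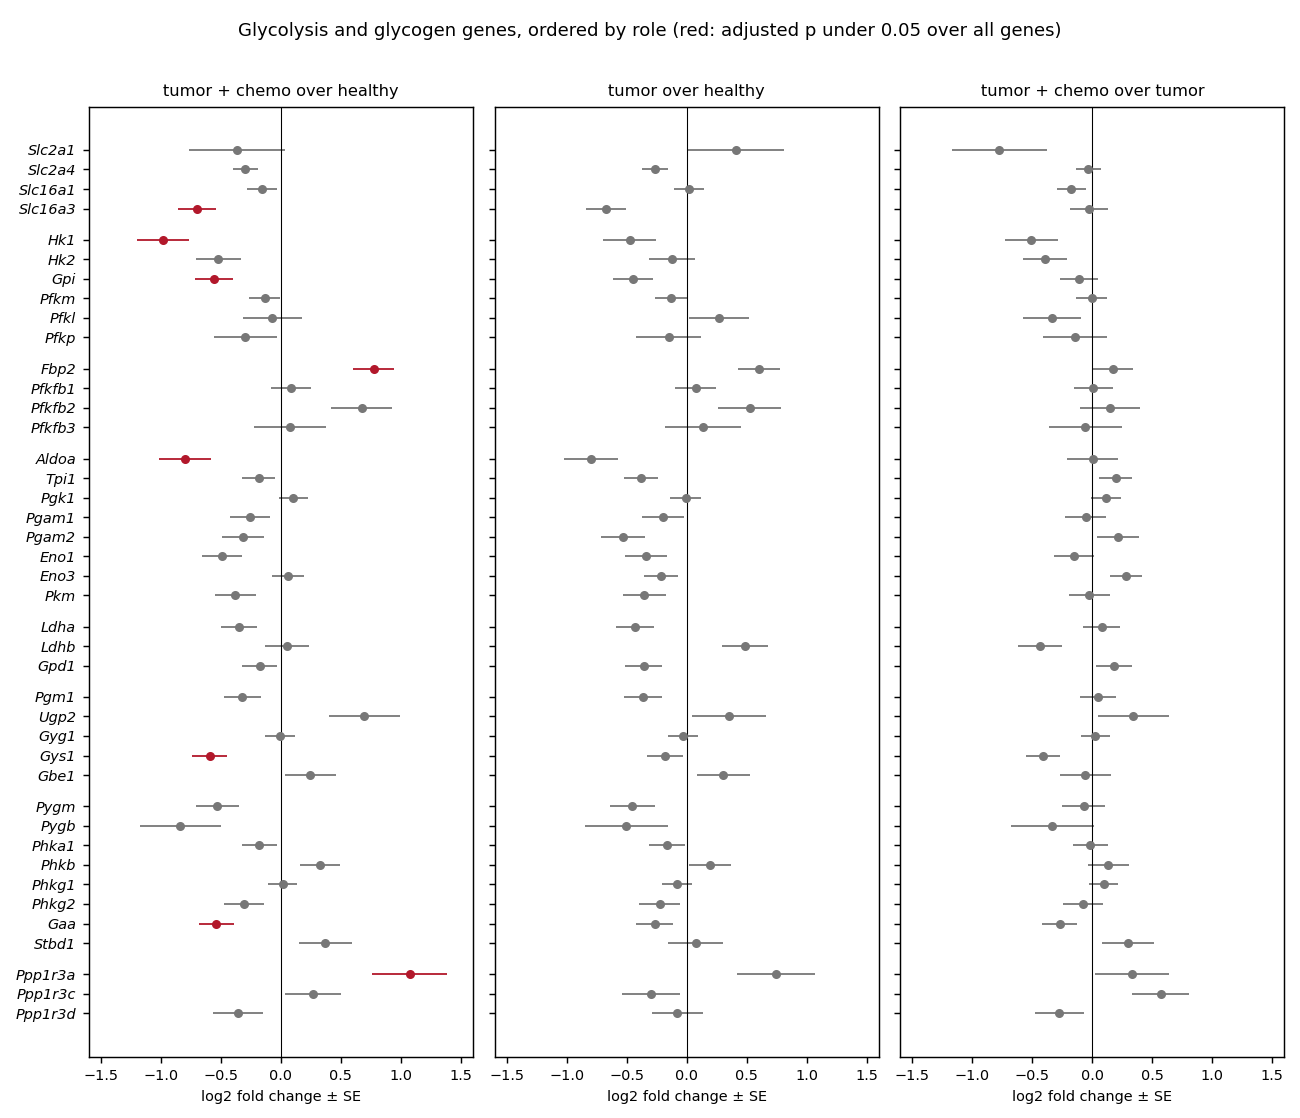
Log2 fold change with its standard error for each of the 41 genes, in rows ordered by role, for chemotherapy over healthy, tumor over healthy, and chemotherapy over tumor samples; red points passed an adjusted p of 0.05 over all genes. Red points appear only in the first panel, 6 on the negative and 2 on the positive side.

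The carriers bring glucose in and let lactate out. Slc16a3, the lactate and proton carrier MCT4 of fast fibers, measured 227 to 321 CPM in chemotherapy samples with a median of 289.8 CPM, 218, 254, 317, 335 and 304 CPM in tumor samples 6 to 10, and 516, 369, 542, 524 and 321 CPM in healthy samples 1 to 5. All 6 chemotherapy samples lay below all 5 healthy samples, although healthy sample 5 was within 1 CPM of the highest chemotherapy sample, and healthy sample 5 also lay within the tumor range. Its log2 fold change was -0.70 ± 0.16 (SE) against healthy with chemotherapy (edgeR adjusted p = 0.0261) and -0.67 ± 0.17 without (edgeR adjusted p = 0.211). The chemotherapy value became -0.30 without healthy samples 1, 3 and 4 and -0.45 with the suffix as a term.

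Slc2a4, the insulin-responsive glucose carrier GLUT4 that moves to the fiber surface, measured 399 to 459 CPM in chemotherapy samples with a median of 447 CPM, 444, 444, 460.1, 461 and 439 CPM in tumor samples 6 to 10, and 575, 468, 577, 537 and 538 CPM in healthy samples 1 to 5. Every tumor-bearing sample, treated or not, lay below every healthy sample, and Slc2a4 was the 1 gene of the 41 whose tumor and healthy samples did not overlap, where 0.995% of all genes had no overlap. The differences were small, -0.30 ± 0.10 on the log2 scale with chemotherapy and -0.26 ± 0.11 without, and neither passed the threshold (edgeR adjusted p = 0.0553 and 0.247), while DESeq2 and limma-voom called the first (adjusted p = 0.00413 and 0.0431). Slc2a1, the glucose carrier GLUT1 found in many cell types, averaged 2.72 ± 1.61 CPM in chemotherapy, 4.97 ± 2.46 CPM in tumor and 3.60 ± 1.81 CPM in healthy samples (SD, n = 6, 5 and 5, as in the averages that follow). Slc16a1, the lactate carrier MCT1 of oxidative fibers, averaged 81.9 ± 4.72 CPM in chemotherapy, 92.6 ± 9.55 CPM in tumor and 91.1 ± 15.1 CPM in healthy samples. Neither was called in any comparison.

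Hexokinases trap glucose as glucose phosphate, Gpi turns that into fructose phosphate, and phosphofructokinase commits it to glycolysis. Hk1, a hexokinase expressed in many tissues, measured 6.54 to 11.1 CPM in chemotherapy samples with a median of 6.88 CPM, 12.9, 10.4, 17.3, 8.26 and 7.78 CPM in tumor samples 6 to 10, and 17, 11.5, 16.2, 19.04 and 14.9 CPM in healthy samples 1 to 5. The highest chemotherapy sample was sample 11, just below healthy sample 2, and the tumor samples spanned both ranges. The log2 fold change was -0.98 ± 0.22 with chemotherapy (edgeR adjusted p = 0.0261) and -0.48 ± 0.22 in tumor samples against healthy ones (edgeR adjusted p = 0.274), the first becoming -0.73 without healthy samples 1, 3 and 4 and -0.78 with the suffix as a term.

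Hk2, the insulin-regulated hexokinase of muscle, measured 93.6 to 157 CPM in chemotherapy samples with a median of 132 CPM, 137, 185, 196, 153 and 152 CPM in tumor samples 6 to 10, and 204, 172, 141, 121 and 259.8 CPM in healthy samples 1 to 5. Healthy samples 3 and 4 lay within the chemotherapy range, and the log2 fold change of -0.52 ± 0.18 against healthy did not pass the threshold (edgeR adjusted p = 0.0587; DESeq2 adjusted p = 0.044). Gpi measured 817 to 1178 CPM in chemotherapy samples with a median of 1035 CPM, 869.9, 1103, 1152, 1126 and 1193 CPM in tumor samples 6 to 10, and 1693, 1299, 1644, 1762 and 1011 CPM in healthy samples 1 to 5. Every tumor-bearing sample lay far below healthy samples 1, 3 and 4, healthy sample 2 was nearer, and healthy sample 5 lay among them. Its log2 fold change was -0.55 ± 0.16 with chemotherapy (edgeR adjusted p = 0.0337) and -0.44 ± 0.17 without (edgeR adjusted p = 0.242), and the first became -0.19 without healthy samples 1, 3 and 4 and -0.24 with the suffix as a term.

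Pfkm, the muscle subunit of phosphofructokinase, measured 3527 to 4070.5 CPM in chemotherapy samples with a median of 3830.2 CPM, 3221, 3885, 4559.9, 3589.8 and 3895 CPM in tumor samples 6 to 10, and 4864, 4493, 4367, 3359 and 3858 CPM in healthy samples 1 to 5. The 3 groups overlapped throughout, with a log2 fold change of -0.13 ± 0.13 for chemotherapy against healthy samples. The liver subunit Pfkl averaged 9.32 ± 3.01 CPM in chemotherapy, 12.01 ± 3.11 CPM in tumor and 9.82 ± 2.86 CPM in healthy samples. The platelet subunit Pfkp averaged 6.03 ± 1.82 CPM in chemotherapy, 6.57 ± 3.08 CPM in tumor and 7.30 ± 1.12 CPM in healthy samples. Neither subunit was called.

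A second set of enzymes sets the balance of fructose phosphate and fructose bisphosphate in the other direction or through a signal metabolite. Fbp2, the muscle fructose bisphosphatase that opposes phosphofructokinase and allows glycogen to be made from lactate, measured 65.1 to 104 CPM in chemotherapy samples with a median of 84.3 CPM, 77.4, 80.2, 59.1, 89.9 and 70.6 CPM in tumor samples 6 to 10, and 60.6, 62.3, 47.3, 42 and 37.3 CPM in healthy samples 1 to 5. Every chemotherapy sample lay above every healthy sample, and of the tumor samples only sample 8 lay within the healthy range. The log2 fold change was 0.77 ± 0.17 with chemotherapy (edgeR adjusted p = 0.0261) and 0.60 ± 0.17 without (edgeR adjusted p = 0.211). The first was 0.78 without healthy samples 1, 3 and 4 and 0.86 with the suffix as a term and stayed close to its value over all samples.

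Pfkfb1, Pfkfb2 and Pfkfb3 make and remove the fructose bisphosphate isomer that activates phosphofructokinase. Pfkfb2 averaged 10.7 ± 3.22 CPM in chemotherapy, 9.55 ± 2.61 CPM in tumor and 6.73 ± 2.30 CPM in healthy samples, with a log2 fold change of 0.67 ± 0.26 against healthy (edgeR adjusted p = 0.0712). Pfkfb1 averaged 80.8 ± 10.7 CPM in chemotherapy, 80.4 ± 15.5 CPM in tumor and 76.2 ± 20.7 CPM in healthy samples. Pfkfb3 averaged 381 ± 149 CPM in chemotherapy, 397 ± 122 CPM in tumor and 362 ± 125 CPM in healthy samples, and its SD was above 100 CPM in each group. All 4 genes of this set had positive log2 fold changes against healthy muscle with chemotherapy and without, where 51.2% and 49% of all genes had negative ones. With chemotherapy 1 of the 4, Fbp2, was called (25%), against 13.7% of all genes.

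The lower enzymes split fructose bisphosphate and carry the products to pyruvate. Aldoa, the muscle aldolase, measured 15041 to 24397 CPM in chemotherapy samples with a median of 16977 CPM, 12527, 14028, 24021, 15653 and 23626 CPM in tumor samples 6 to 10, and 39239.8, 21441, 38371, 35404 and 21907 CPM in healthy samples 1 to 5. Healthy samples 1, 3 and 4 stood at 35404 CPM or more, above every other sample, while healthy samples 2 and 5 lay within the range of both tumor-bearing groups. Aldoa's log2 fold change was -0.80 ± 0.21 with chemotherapy (edgeR adjusted p = 0.0308) and -0.80 ± 0.23 without (edgeR adjusted p = 0.211). The chemotherapy value became -0.27 without healthy samples 1, 3 and 4 and -0.43 with the suffix as a term. A smaller value without those 3 follows from leaving out the highest healthy samples.

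Eno1, the enolase of most tissues, measured 105 to 159 CPM in chemotherapy samples with a median of 142 CPM, 137, 123, 177, 144 and 175 CPM in tumor samples 6 to 10, and 233, 150.5, 186, 239 and 146 CPM in healthy samples 1 to 5. Healthy samples 2 and 5 lay within the chemotherapy range, and the log2 fold change of -0.49 ± 0.17 missed the threshold (edgeR adjusted p = 0.0512), while DESeq2 and limma-voom called it (adjusted p = 0.032 and 0.0461). Eno3, the muscle enolase, averaged 10379 ± 1126 CPM in chemotherapy, 8555 ± 787 CPM in tumor and 9938 ± 1361 CPM in healthy samples and was not called in any comparison. Pgam2, the muscle phosphoglycerate mutase, measured 2722 to 4168 CPM in chemotherapy samples with a median of 3633 CPM, 2531, 2515, 3209, 3365 and 3619 CPM in tumor samples 6 to 10, and 4647, 3571, 5345, 5535 and 2911 CPM in healthy samples 1 to 5. Again the highest were healthy samples 1, 3 and 4, and the log2 fold change against healthy was -0.32 ± 0.17 with chemotherapy (edgeR adjusted p = 0.191) and -0.53 ± 0.18 without (edgeR adjusted p = 0.221). The chemotherapy value of Pgam2 turned to 0.13 without healthy samples 1, 3 and 4 and to 0.020 with the suffix as a term.

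The brain form Pgam1 averaged 28.1 ± 4.87 CPM in chemotherapy, 29.4 ± 6.86 CPM in tumor and 33.6 ± 6.26 CPM in healthy samples. Triosephosphate isomerase Tpi1 averaged 82.9 ± 7.35 CPM in chemotherapy, 72.5 ± 9.66 CPM in tumor and 94.03 ± 18.6 CPM in healthy samples, with a log2 fold change of -0.38 ± 0.14 in tumor samples against healthy ones (edgeR adjusted p = 0.242). Phosphoglycerate kinase Pgk1, which makes the first ATP of the pathway, averaged 1581 ± 135 CPM in chemotherapy, 1465 ± 121 CPM in tumor and 1470.4 ± 198 CPM in healthy samples. Pyruvate kinase Pkm averaged 4338 ± 504 CPM in chemotherapy, 4419 ± 1041 CPM in tumor and 5641 ± 1168 CPM in healthy samples, with a log2 fold change of -0.38 ± 0.17 against healthy with chemotherapy (edgeR adjusted p = 0.115). Of the 8 lower enzymes, 1, Aldoa, was called between chemotherapy and healthy muscle (12.5%), against 13.7% of all genes. Tpi1, Pgam1, Pgk1, Eno1, Ldha and Aldoa have near-identical processed copies in rodent genomes, so reads could have been split or lost in counting, and their values carry that uncertainty.

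Lactate dehydrogenase joins pyruvate to lactate, with Ldha the muscle and Ldhb the heart subunit. Ldha measured 2702 to 3402 CPM in chemotherapy samples with a median of 3172 CPM, 2491, 2461, 3097, 3142 and 3634 CPM in tumor samples 6 to 10, and 4585, 3411, 4233, 4798 and 2916 CPM in healthy samples 1 to 5. Healthy samples 1, 3 and 4 lay above all tumor-bearing samples and healthy samples 2 and 5 among them. Ldhb averaged 170.1 ± 23.7 CPM in chemotherapy, 230.1 ± 58.4 CPM in tumor and 164 ± 41.9 CPM in healthy samples, so the tumor samples had the higher mean, with a log2 fold change of 0.49 ± 0.19 relative to healthy samples, and chemotherapy samples were at -0.44 ± 0.18 relative to tumor samples. Neither passed the threshold (edgeR adjusted p = 0.247 and 0.778). The 11 markers of slow fibers, which use Ldhb, summed to 6747 to 11316 CPM in chemotherapy, 8377 to 16475 CPM in tumor and 5847 to 13508 CPM in healthy samples. All 11 had positive log2 fold changes in tumor against healthy samples (median 0.68). There 8 of the 11 had an unadjusted edgeR p under 0.05, against 18% of all genes, and 0 were called, as were 0 of all genes. In chemotherapy against tumor samples all 11 were negative (median -0.35). Of these, 4 had an unadjusted edgeR p under 0.05, against 5.78% of all genes, and again 0 were called, as were 0 of all genes. None of the 11 was at 0, and their part in the Ldhb values was not tested. Gpd1, which makes glycerol phosphate from a glycolytic intermediate, averaged 1182 ± 175 CPM in chemotherapy, 1043 ± 136 CPM in tumor and 1336 ± 221 CPM in healthy samples.

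Glycogen is built from glucose phosphate by Pgm1, Ugp2, the primer protein Gyg1, the synthase Gys1 and the branching enzyme Gbe1. Gys1, muscle glycogen synthase, measured 370.3 to 510.1 CPM in chemotherapy samples with a median of 434 CPM, 434, 562, 745, 532 and 651 CPM in tumor samples 6 to 10, and 808, 575, 595, 646 and 689.7 CPM in healthy samples 1 to 5. Every chemotherapy sample lay below every healthy sample, and the tumor samples lay between and across both. The log2 fold change was -0.59 ± 0.15 for chemotherapy against healthy (edgeR adjusted p = 0.0279), -0.18 ± 0.15 in tumor relative to healthy samples (edgeR adjusted p = 0.506) and -0.41 ± 0.15 for chemotherapy against tumor samples (edgeR adjusted p = 0.778). The first was -0.52 without healthy samples 1, 3 and 4 and -0.56 with the suffix as a term, close to its value over all samples. Among VM samples alone, an alternative chosen after the data were seen, chemotherapy against tumor gave -0.44 for Gys1.

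Phosphoglucomutase Pgm1, which joins glycogen to glycolysis, averaged 1719 ± 190.1 CPM in chemotherapy, 1666 ± 269 CPM in tumor and 2146 ± 418 CPM in healthy samples. Ugp2, which makes the activated glucose donor, averaged 488 ± 123 CPM in chemotherapy, 386 ± 83.5 CPM in tumor and 302 ± 159.5 CPM in healthy samples, with a log2 fold change of 0.70 ± 0.30 against healthy (edgeR adjusted p = 0.101). Gyg1, on which a chain is started, averaged 278 ± 20.2 CPM in chemotherapy, 274 ± 31 CPM in tumor and 279 ± 39.8 CPM in healthy samples. Gbe1, the branching enzyme, averaged 106 ± 27.3 CPM in chemotherapy, 111 ± 20.9 CPM in tumor and 89.5 ± 33.6 CPM in healthy samples. Of these 5 genes, 1, Gys1, was called between chemotherapy and healthy muscle (20%), against 13.7% of all genes.

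Glycogen is broken down in the cytosol by phosphorylase and in lysosomes by Gaa, the acid glucosidase missing in Pompe disease. Pygm, the muscle phosphorylase missing in McArdle disease, measured 8946 to 12510.1 CPM in chemotherapy samples with a median of 9722 CPM, 7549, 10262, 13559, 9746 and 12182 CPM in tumor samples 6 to 10, and 20094, 12963, 15375, 14434 and 10124 CPM in healthy samples 1 to 5. Healthy samples 1 to 4 lay above all chemotherapy samples, healthy sample 5 lay among them, and the tumor samples overlapped both. The log2 fold change was -0.53 ± 0.18 with chemotherapy and -0.45 ± 0.19 without (edgeR adjusted p = 0.0516 and 0.247). DESeq2 and limma-voom called the first (adjusted p = 0.0245 and 0.0453). Gaa measured 96.4 to 145 CPM in chemotherapy samples with a median of 124 CPM, 128, 154, 183, 130.2 and 149 CPM in tumor samples 6 to 10, and 226, 132, 191, 169.8 and 176 CPM in healthy samples 1 to 5. The chemotherapy samples reached into the healthy range through sample 11 and sample 17, which lay above healthy sample 2. Its log2 fold change was -0.54 ± 0.15 with chemotherapy (edgeR adjusted p = 0.0308), becoming -0.32 without healthy samples 1, 3 and 4 and -0.44 with the suffix as a term.

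Pygb, the brain phosphorylase, averaged 6.60 ± 2.92 CPM in chemotherapy, 8.57 ± 2.84 CPM in tumor and 11.9 ± 4.65 CPM in healthy samples, and 1 chemotherapy sample rested on 3 counts. Phosphorylase kinase has a regulatory Phka1 and Phkb part and a catalytic part, Phkg1 in muscle and Phkg2 in liver. Phka1 averaged 962 ± 113 CPM in chemotherapy, 973 ± 90.4 CPM in tumor and 1089.8 ± 238 CPM in healthy samples. Phkb averaged 573 ± 106 CPM in chemotherapy, 523 ± 74.7 CPM in tumor and 457 ± 115 CPM in healthy samples. Both regulatory subunits overlapped between all groups. Phkg1 averaged 359 ± 24.6 CPM in chemotherapy, 336 ± 26.1 CPM in tumor and 355 ± 58.6 CPM in healthy samples. Phkg2 averaged 12.04 ± 1.40 CPM in chemotherapy, 12.8 ± 1.42 CPM in tumor and 14.9 ± 3.55 CPM in healthy samples. The 4 kinase subunits had log2 fold changes against healthy of -0.18 ± 0.15, 0.33 ± 0.17, 0.01 ± 0.12 and -0.31 ± 0.17 with chemotherapy, in that order, and none was called. Stbd1, which tethers glycogen to membranes, averaged 102 ± 21.3 CPM in chemotherapy, 82.8 ± 24.7 CPM in tumor and 78.9 ± 27.3 CPM in healthy samples.

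Targeting subunits bring protein phosphatase 1 to glycogen, where it turns on the synthase and turns off phosphorylase. Ppp1r3a, the striated-muscle targeting subunit, measured 706 to 1407 CPM in chemotherapy samples with a median of 991 CPM, 1137, 972, 418, 838 and 607 CPM in tumor samples 6 to 10, and 446, 791, 273, 208 and 656 CPM in healthy samples 1 to 5. Healthy samples 1, 3, 4 and 5 lay below every chemotherapy sample, healthy sample 2 lay within the chemotherapy range, and the tumor samples overlapped both groups. The log2 fold change was 1.07 ± 0.31 with chemotherapy (edgeR adjusted p = 0.0366) and 0.74 ± 0.32 without (edgeR adjusted p = 0.253). The first became 0.46 without healthy samples 1, 3 and 4 and 0.70 with the suffix as a term, and with no filter on low counts its adjusted p was 0.0684. Ppp1r3c, a targeting subunit of several tissues, averaged 746 ± 112 CPM in chemotherapy, 503 ± 190.5 CPM in tumor and 619 ± 217 CPM in healthy samples, with a log2 fold change of 0.57 ± 0.24 for chemotherapy against tumor samples (edgeR adjusted p = 0.778). Ppp1r3d, another of the family, averaged 11.4 ± 2.03 CPM in chemotherapy, 14.03 ± 3.996 CPM in tumor and 14.8 ± 3.93 CPM in healthy samples.

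**Figure D3:**
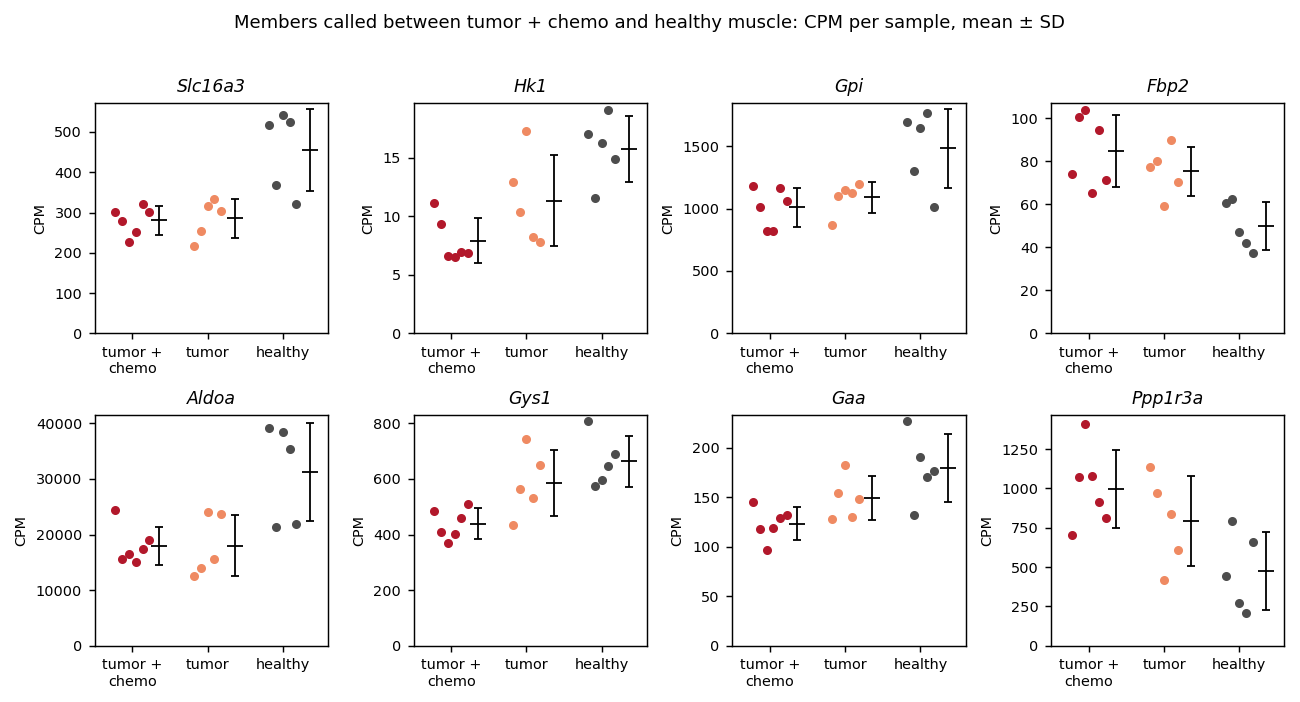
CPM in every sample for the 8 genes called between chemotherapy and healthy muscle, with the tumor samples between them; points are samples, bars the mean ± SD, and each axis starts at 0. Chemotherapy samples lie below all healthy samples for Slc16a3, Hk1 and Gys1 and above all of them for Fbp2, and the other 4 genes overlap.

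The promoters of 4 of these genes are shown because 3 of them, Hk1, Gys1 and Ppp1r3a, were called between chemotherapy and healthy muscle and Pygm is the counterpart of Gys1. Each is RefSeq sequence of the GRCr8 build, 250 bases before and 50 after the gene's annotated start, read 5′ to 3′ along the gene's strand. Capitals mark matches on either strand to the E-box CANNTG, bound by muscle regulatory factors among others, to the hypoxia response core ACGTG, and to the MEF2 consensus.
Hk1 (chr20:30874765-30875064, minus strand): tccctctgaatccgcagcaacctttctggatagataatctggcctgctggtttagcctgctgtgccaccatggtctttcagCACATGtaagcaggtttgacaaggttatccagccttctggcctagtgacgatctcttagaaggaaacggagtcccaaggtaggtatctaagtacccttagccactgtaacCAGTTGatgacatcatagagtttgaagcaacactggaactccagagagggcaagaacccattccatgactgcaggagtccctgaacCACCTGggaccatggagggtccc
Gys1 (chr1:105051666-105051965, plus strand): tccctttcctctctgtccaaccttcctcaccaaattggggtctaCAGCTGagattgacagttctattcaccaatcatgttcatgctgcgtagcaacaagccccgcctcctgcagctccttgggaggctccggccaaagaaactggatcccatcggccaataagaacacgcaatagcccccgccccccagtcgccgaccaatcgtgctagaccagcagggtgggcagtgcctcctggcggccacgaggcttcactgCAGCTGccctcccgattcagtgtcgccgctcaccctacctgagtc
Pygm (chr1:213119555-213119854, plus strand): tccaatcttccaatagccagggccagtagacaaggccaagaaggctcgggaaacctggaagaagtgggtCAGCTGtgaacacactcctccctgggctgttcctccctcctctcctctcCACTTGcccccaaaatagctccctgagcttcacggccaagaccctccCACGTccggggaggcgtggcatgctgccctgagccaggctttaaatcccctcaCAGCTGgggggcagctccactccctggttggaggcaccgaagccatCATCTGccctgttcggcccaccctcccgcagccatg
Ppp1r3a (chr4:43946187-43946486, minus strand): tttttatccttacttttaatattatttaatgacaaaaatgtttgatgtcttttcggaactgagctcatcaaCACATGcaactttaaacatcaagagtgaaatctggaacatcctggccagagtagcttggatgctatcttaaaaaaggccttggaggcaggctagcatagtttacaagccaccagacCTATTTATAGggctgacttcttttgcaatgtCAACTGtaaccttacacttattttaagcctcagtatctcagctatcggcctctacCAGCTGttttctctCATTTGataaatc
Hk1 held 3 E-box matches, Gys1 2, Pygm 4 and Ppp1r3a 4. Pygm also held a match to the hypoxia core at bases -85 to -81 from the start, written CACGT on its strand. Ppp1r3a held the 1 MEF2 match of the set at bases -63 to -54, which overlaps a match to the TATA box TATAAA on the other strand.

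RefSeq promoters were found for 37 of the 41 genes. An E-box match was present in 25 of these 37 (67.6%), against 72.1% of all 33469 rat promoters of this length. The hypoxia core was present in 17 of 37 (45.9%), against 19.3% of all promoters, and the members' promoters had a median GC content of 60.3%, against 51.7% over all promoters. TATAAA was found in 5 of 37 (13.5%) against 14.2%, and the MEF2 consensus in 1 of 37 (2.7%) against 3.29%. Of the 6 genes called lower, 4 held an E-box and 2 the hypoxia core. A match is a run of letters and not a bound site.

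The balance between paired genes was compared as the log2 ratio of their counts within a sample, for 10 pairs and 3 comparisons, with two-sided exact permutation tests adjusted over the 30 tests. None of the 30 passed an adjusted p of 0.05. The ratio of Gys1 to Pygm lay at -4.71 to -4.25 in chemotherapy samples (median -4.51), at -4.23 to -4.12 in tumor samples and at -4.69 to -3.88 in healthy samples. Chemotherapy and tumor samples did not overlap: the difference was -0.34 (exact permutation p = 0.00433, adjusted p = 0.0649), and the SD of the tumor samples was 0.0388. Among VM samples alone it was -0.31 (exact permutation, adjusted p = 0.0595), and the difference between chemotherapy and healthy samples was -0.09 (exact permutation, adjusted p = 0.779).

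The ratio of Eno1 to Eno3, the general over the muscle enolase, lay at -6.58 to -6.06 in chemotherapy samples, at -6.07 to -5.58 in tumor samples and at -6.08 to -5.32 in healthy samples. Chemotherapy differed from healthy samples by -0.55 (exact permutation p = 0.00433, adjusted p = 0.0649) and from tumor samples by -0.44 (exact permutation p = 0.00649, adjusted p = 0.0649), with 1 chemotherapy sample, sample 11, reaching into both ranges. The ratio of Ldhb to Ldha was 0.90 higher in tumor than in healthy samples (exact permutation p = 0.0238, adjusted p = 0.179). The ratio of Slc16a1 to Slc16a3 was higher by 0.54 in chemotherapy than in healthy samples (exact permutation p = 0.0325, adjusted p = 0.195) and by 0.69 in tumor than in healthy samples (exact permutation p = 0.0397, adjusted p = 0.198). The other 6 pairs, of hexokinases, phosphoglycerate mutases, phosphorylases, glucose carriers, phosphofructokinases and kinase catalytic subunits, had raw exact permutation p-values above 0.05 in each comparison. The smallest p the design allows is 0.00216 with 6 against 5 samples and 0.00794 with 5 against 5.

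**Figure D4:**
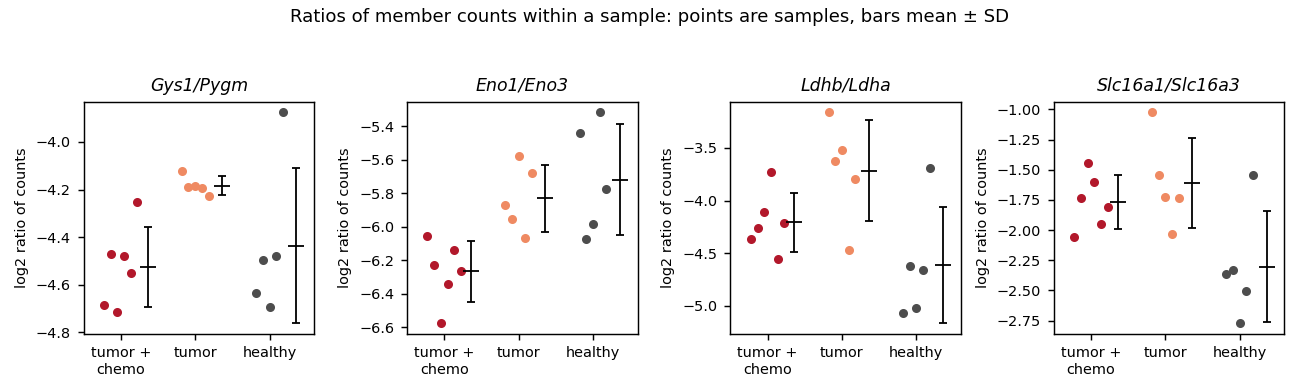
Log2 ratio of the counts of paired genes within each sample, for Gys1 over Pygm, Eno1 over Eno3, Ldhb over Ldha and Slc16a1 over Slc16a3; points are samples, bars the mean ± SD. The tumor samples of Gys1 over Pygm lie close together, at -4.23 to -4.12, above all chemotherapy samples.

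Genes of neighbouring steps were read from 5 further lists, whose called shares of 12.5, 13.3, 11.1, 14.3 and 0%, in the order below, lay near or below the 13.7% of all genes. Of 8 tested further glucose and lactate carriers and partners, Bsg was called lower in chemotherapy than in healthy samples and 0 were called higher. Bsg, the chaperone that brings MCT4 to the membrane, averaged 323 ± 44.8 CPM in chemotherapy, 365 ± 89.3 CPM in tumor and 563 ± 156 CPM in healthy samples. Its log2 fold change against healthy was -0.80 ± 0.19 with chemotherapy (edgeR adjusted p = 0.0271) and -0.63 ± 0.19 without (edgeR adjusted p = 0.211). Of 15 tested further glycogen genes, 2 were called lower in chemotherapy than in healthy samples and 0 higher. They were Gsk3a, a kinase that inhibits glycogen synthase, at -0.68 ± 0.15, and Ppp1ca, a catalytic subunit of protein phosphatase 1, at -0.60 ± 0.18, both as log2 fold changes (edgeR adjusted p = 0.0261 and 0.0375). In tumor against healthy samples they stood at -0.47 ± 0.16 and -0.51 ± 0.19 (edgeR adjusted p = 0.221 and 0.242). Of 9 tested further glycolysis enzymes, Bpgm, which makes bisphosphoglycerate, was higher at 0.42 ± 0.13 (edgeR adjusted p = 0.0461) and 0 were lower. Of 14 tested genes of the pentose phosphate and hexosamine branches, 2 were higher and 0 lower: Rpe, an epimerase of pentose phosphates, at 1.0 ± 0.24, and Oga, which removes the sugar tag made from hexosamine, at 0.59 ± 0.16 (edgeR adjusted p = 0.0276 and 0.0321). Of 19 tested transcriptional regulators of glycolysis, 0 were called, with Mef2d at -0.53 ± 0.18 and Esrra at -0.41 ± 0.14 nearest (edgeR adjusted p = 0.0509 and 0.0518). In each of these lists 0 genes were called in the other 2 comparisons, where 0 of all genes were called.

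Some markers of other cells were also called between chemotherapy and healthy muscle, where 6.41% of all genes were called lower and 7.3% higher. The 7 markers of smooth muscle and pericytes summed to 237 to 338 CPM in chemotherapy, 336 to 511 CPM in tumor and 368 to 473 CPM in healthy samples. Of these, 5 of the 7 (71.4%) were called lower in chemotherapy than in healthy samples. The 7 measured fibroblast markers summed to 2309 to 10900 CPM in chemotherapy, 2875 to 13114 CPM in tumor and 4670 to 14351 CPM in healthy samples, with 3 called lower (42.9%). The 6 measured endothelial markers summed to 153 to 225 CPM in chemotherapy, 189 to 269 CPM in tumor and 222 to 249 CPM in healthy samples, with 1 called lower and 1 higher (33.3% in either direction, against 13.7% of all genes). Adipocyte markers summed to 112 to 541 CPM in chemotherapy, 90.0 to 239 CPM in tumor and 53.8 to 141 CPM in healthy samples, with 1 of 5 tested called higher (20%). Red blood cell markers summed to 124 to 917 CPM in chemotherapy (median 416 CPM), 227 to 588 CPM in tumor (median 385 CPM) and 440.4 to 1379 CPM in healthy samples (median 836 CPM), and all 5 had negative log2 fold changes against healthy with chemotherapy (median -0.88) and without (median -1.06). Macrophage markers summed to 184 to 373 CPM in chemotherapy, 151 to 276 CPM in tumor and 174 to 397 CPM in healthy samples, and all 8 had negative log2 fold changes against healthy in both comparisons. Neither list had a call. None of these lists had a member at 0 in all samples. Their part in the lower values of genes that many cell types express, such as Hk1 and Gaa, was not tested. The fast-fiber list, 10 of whose 13 genes were analysed here, had 0 calls in any comparison. Of these 10, 7 had negative log2 fold changes against healthy with chemotherapy (median -0.15) and 7 without (median -0.20). Over all genes 51.2% and 49% were negative in these comparisons. At an unadjusted edgeR p under 0.05 stood 4 of the 10 with chemotherapy, against 36.4% of all genes, and 4 without, against 18%. The part of fast fibers in the values of the 41 genes was not tested.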

How the data were processed

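Total RNA from rat gastrocnemius was depleted of ribosomal RNA and sequenced as stranded libraries, per the labels' protocols. Reads were handled with Bowtie2 and TopHat2 2.0.10, Trim Galore 0.4.1, CASAVA 1.9 and FastQC 0.11.4, per the submitters' processing notes; build, annotation, counting program and strand use were not given in the sources used here, so overlapping and antisense genes could not be separated. The authors deposited whole-number read counts per gene, and these raw counts were the only values used; 388 of the 32883 entries have no gene name, held 0.102 to 0.373% of a library's counts and were left out.

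Libraries 11 and 12 were summed. The counts of 16 samples were fitted in 1 model with edgeR 4.0.16 (R 4.3.3; filterByExpr, trimmed mean of M-values, robust quasi-likelihood test), and p-values were adjusted by Benjamini-Hochberg over all 11856 genes tested, with a call at 0.05. The error of a log2 fold change is its size divided by the square root of the F statistic. Ratios within a sample had 0.5 added to each count. Tested on simulated data, with effects placed in the real design, the fit called 86% of genes changed by 1 log2 unit between chemotherapy and healthy samples, 76% between tumor and healthy and 85% between chemotherapy and tumor samples. Simulated counts had 1 mean per gene and the spread of the trend over all genes. Effects were placed only in genes above a minimum level and only at 1 or 2 log2 units. Smaller changes, as seen in most genes described here, were not simulated. Unchanged genes called numbered 9 between tumor and healthy samples and 7 in each other comparison. Neither the suffix nor the split within the healthy group was simulated, so these rates may be too high for the real data.

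The 42 genes, the other lists and the left-out sets of samples were chosen with earlier results of these data known. Every gene found is named; values per sample are given for the 14 with the smallest p in any comparison and for a preset group of key enzymes, and of the other lists the called genes, or those nearest to a call, are named. Alternatives were other scalings, filters, tools (DESeq2 1.42.0, limma-voom 3.58.1) and samples left out. Promoter sequences came from RefSeq (GRCr8), matched by symbol.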

Additional observations from a re-analysis of the deposited data

Results flagged for a closer look

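Among 138 sets of values (a gene or ratio in 1 group of 5 or 6 samples), 8 held a sample far from the others of its group by Dixon's criterion. Chance alone flags about 1 in 20, and the share flagged here was near that. Healthy sample 5 and chemotherapy sample 11, flagged below, are each the only sample of their group with their suffix. The part of the suffix in these flags was not tested. In chemotherapy samples, Pygb was 0.935 CPM in sample 15 against 6.21 to 8.99 CPM in the others. Slc16a1 was 72.6 CPM in sample 11 against 82.9 to 86.1 CPM, and Slc2a1 was 5.96 CPM in sample 11 against 1.76 to 2.47 CPM. In tumor samples, Gpi was 869.9 CPM in sample 6 against 1103 to 1193 CPM, and Pfkp was 11.96 CPM in sample 8 against 4.57 to 6.19 CPM. In healthy samples, Gpd1 was 954 CPM in sample 5 against 1362 to 1491 CPM, Pfkfb1 was 112 CPM in sample 1 against 59.9 to 74.6 CPM, and the log2 ratio of Gys1 to Pygm was -3.88 in sample 5 against -4.69 to -4.48.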

How the results depend on the processing

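Between chemotherapy and healthy muscle, 1625 genes were called with all samples, 884 with no filter, 2577 with DESeq2 and 2459 with limma-voom. Without healthy samples 1, 3 and 4, and likewise with the suffix as a term, 0 genes and 0 of the 41 were called; the cause was not tested. Total-count scaling shifted the median over all genes to 0.12 and gave 1669 higher and 348 lower calls, against 865 and 760; of the 41, 3 were then higher and 4 lower. DESeq2 called 29 genes between tumor and healthy muscle, 1 of them among the 41, and 8 between chemotherapy and tumor muscle. With all 17 libraries, 3 ratios passed, but this setting counts the closely alike libraries 11 and 12 as 2 independent samples. Some log2 fold changes against healthy turned sign, and the cause was not tested: Pfkm with chemotherapy was 0.013 by total counts, Pgam2 0.13 without healthy samples 1, 3 and 4 and 0.020 with the suffix, Eno1 in tumor samples 0.023 without healthy samples 1, 3 and 4, and Gpd1 in tumor samples 0.012 with the suffix. Hk2 in tumor samples ranged from -0.25 to 0.037 with 1 sample left out, positive without healthy sample 5.

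Leaving out 1 sample at a time gave 0 to 3799 genes and 0 to 16 of the 41 called between chemotherapy and healthy muscle, 0 to 504 genes and 0 to 3 of the 41 between tumor and healthy, 0 to 3 genes between chemotherapy and tumor, and 0 to 6 ratios past the threshold. Of the other single values under the remaining alternatives, 19 lost and 16 gained a call. Counts of higher or lower calls, which have no test, moved in 21 cases. The remaining 582 kept direction and side of the threshold, or were such counts that stayed near their value in the edgeR fit over all samples. No paired analysis was possible because the groups share no replicate numbers. Counts as low as 3 in Pygb limit the precision of the less abundant forms.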
